A study of Mus musculus with 6 samples.

Results

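Annexins are cytosolic proteins that bind phospholipids, chiefly phosphatidylserine, when calcium rises, and each is built from a conserved core of repeats behind an N-terminal head that differs between family members. They link membranes to one another and to the cortical actin network, take part in membrane repair and vesicle traffic, and several leave the cell without a signal peptide. Expression of 9 annexin genes, *Anxa1* to *Anxa8* and *Anxa11*, was examined in fibroblasts of the pubertal mouse mammary gland. They were found by matching the gene identifiers of the count table to these symbols and made up 9 of its 27179 genes, and they had been chosen on their CD34hi and CD34lo values in this same table. All 9 passed the filter on low counts, as did 15219 genes in all. The table listed 12 annexin genes, and *Anxa9*, *Anxa10* and *Anxa13* were not among the 9.

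The comparison was between CD34hi and CD34lo fibroblasts from FVB/NJ females of 6 weeks of age, called FVB/N in the sample labels. The cells were depleted of CD31, CD45 and TER-119 positive cells, gated as CD24- and Pdgfrα+, and then divided by surface CD34. Each of 3 biological replicates was a pool of 2 mice that was sorted into both populations. This gave 6 libraries, with the CD34hi and the CD34lo library of a pool coming from the same animals, and values of single mice were not measured. Since the comparison itself led to the choice of genes, the differences between populations given for them are descriptions and carry no p-value.

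The libraries held between 28764779 and 52402410 counts. *Cd34*, the gene used for the gate, was at 2490, 2639 and 2584 CPM (counts scaled to library size, with TMM-adjusted totals) in the CD34hi libraries of pools 1, 2 and 3, and at 476, 793 and 632 CPM in the matching CD34lo libraries. Fibroblast markers summed to between 28386 and 36429 CPM in all libraries, but single markers differed. *Igfbp5* was called higher in CD34hi fibroblasts, with a log2 fold change of 3.45. *Lum*, *Pdgfra* and *Col1a2* were called higher in CD34lo fibroblasts, at -1.28, -0.74 and -0.69, and *Dcn* was not called, at -0.34. Neutrophils also contain annexins A1 and A3, and the 5 neutrophil markers summed to between 0.0447 and 0.221 CPM, and none of the 5 passed the filter on low counts. The 2 keratinocyte markers summed to between 14.3 and 19.9 CPM in CD34hi and between 3.60 and 7.12 CPM in CD34lo libraries, and *Krt19* of the mesothelial list was also higher in CD34hi fibroblasts, with a log2 fold change of 2.66, while its 3 other markers did not pass the filter. Endothelial, pericyte, muscle, macrophage and epithelial markers had higher sums in all CD34lo than in all CD34hi libraries, with endothelial sums of 28.7 to 49.8 CPM against 7.83 to 24.0 CPM, and the adipocyte sums overlapped. The epithelial difference was carried by *Acta2*, at 3.24 ± 0.00763 CPM (SD, n = 3) in CD34hi and 33.3 ± 5.04 CPM in CD34lo libraries, and by *Itga6*, while *Epcam*, *Krt8*, *Krt18* and *Krt14* overlapped between populations. The macrophage sum of 27.3 to 48.6 CPM in CD34lo libraries was almost all *Fcgr2b*, and *C1qa* and *Cd163* did not pass the filter. The 3 Schwann cell markers summed to between 42.04 and 51.69 CPM in CD34hi and between 16.9 and 25.4 CPM in CD34lo libraries, with *Mbp* higher in CD34hi and *Col20a1* higher in CD34lo fibroblasts. No marker was at 0 in all libraries, and the part of these sums in the results was not tested.

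The feature that marks annexins in sequence is a calcium-binding loop in the core repeats. It was searched as 5 codons in a row that encode glycine, any residue, glycine, threonine, and aspartate or glutamate, read in frame on the coding strand only. In the GENCODE vM21 coding sequences (GRCm38), 1.43% of 21504 genes held at least 1 in-frame match and 11 held more than 1. Match counts are given here only for the 7 annexins that also had an entry in the promoter table described below. *Anxa4* and *Anxa5* held 3 matches each, *Anxa7* and *Anxa11* held 2, *Anxa1* and *Anxa2* held 1, and *Anxa8* held none by these letters. The first match of each gene is given here with the 15 matching bases in capitals, because it is the element that genes higher in CD34hi and genes higher in CD34lo fibroblasts share. Each of these 6 matches lies in coding exons. The coordinates are those of the 27 bases shown, which span an exon junction, and so they include an intron. Whether the junction falls within the capitals was not determined.
Anxa1, chr19:20382120-20382867, minus strand, exons 6 and 7 of 14: atgaagGGACTTGGAACAGATgaagac
Anxa2, chr9:69479786-69482994, plus strand, exons 5 and 6 of 13: atgaagGGCCTGGGGACTGACgaggac
Anxa4, chr6:86757900-86760686, minus strand, exons 2 and 3 of 12: atgaaaGGCCTCGGTACTGATgaagat
Anxa5, chr3:36464049-36465263, minus strand, exons 3 and 4 of 13: atgaaaGGCTTGGGTACCGATgaggac
Anxa7, chr14:20464690-20464856, minus strand, exons 7 and 8 of 14: atgaaaGGGTTTGGGACAGACgagcaa
Anxa11, chr14:25874019-25874223, plus strand, exons 5 and 6 of 15: atgaagGGCTTTGGAACGGATgagcag

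The longest coding sequences gave proteins of 319 residues for annexins A4 and A5, 323 for A3, 327 for A8, 339 for A2, 346 for A1, 485 for A7, 503 for A11 and 673 for A6. The long annexins A7 and A11 carry extended N-terminal heads, and annexin A6 carries a duplicated core. The genes lie on 7 chromosomes. *Anxa7*, *Anxa11* and *Anxa8* are all on chromosome 14, separated by 5.36 and 8.20 megabases.

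RefSeq promoter windows (GRCm38.p6) were at hand for 7 of the 9 genes, not for *Anxa3* and *Anxa6*. Over the 250 bases before the transcription start and on both strands, the TATA box letters TATAAA were found for *Anxa1* and *Anxa2*, and in 12.4% of 32851 windows of the same length. The 30 bases that hold them are shown with these letters in capitals, since both genes were higher in CD34hi fibroblasts and stood among the most abundant annexins.
Anxa1, chr19:20390686-20390715, minus strand: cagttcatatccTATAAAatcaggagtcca
Anxa2, chr9:69453653-69453682, plus strand: aggatggggcgggTATAAAagccccaccca
The letters ended 26 bases before the RefSeq start in *Anxa1* and 11 bases before it in *Anxa2*. In GENCODE both genes begin farther upstream, at 20390944 for *Anxa1* and 69453620 for *Anxa2*. The letters lie inside those gene models, so the distances hold for the RefSeq starts only. The *Anxa2* window also held 3 matches to the GC box letters GGGCGG, found in 32.7% of all windows, and 1 to the AP-1 letters TGANTCA, found in 6.75%. The CCAAT letters, found in 33.8% of all windows, had no match in the windows of the 7 genes. GC box letters were also found for *Anxa7* and for *Anxa11*, the latter with 3 matches. The *Anxa1* window contained 2 CpG dinucleotides, against a median of 6 over all windows, and that of *Anxa8* contained 4. Those of *Anxa2*, *Anxa5* and *Anxa11* contained 9, 13 and 17. *Anxa4* and *Anxa7* had 2 windows each, with 13 and 2 in *Anxa4* and 2 and 16 in *Anxa7*. The windows of *Anxa4*, *Anxa5* and *Anxa8* held no match to any of the 4 motifs.

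Annexin transcripts were abundant in both populations. Levels are compared between genes as RPKM (CPM divided by the deposited gene length in kilobases). In CD34hi fibroblasts the order was *Anxa1* (1831 ± 244 RPKM, SD, n = 3), *Anxa3* (603 ± 57.8), *Anxa2* (380 ± 64.8), *Anxa5* (153 ± 6.13), *Anxa6* (78.9 ± 3.94), *Anxa4* (68.1 ± 4.64), *Anxa7* (48.7 ± 1.43), *Anxa11* (10.6 ± 0.272) and *Anxa8* (0.354 ± 0.145). No neighbors in this order overlapped in their library values. In CD34lo fibroblasts the order was *Anxa1* (1048 ± 223 RPKM, SD, n = 3), *Anxa2* (249 ± 35.5), *Anxa5* (244 ± 20.8), *Anxa6* (87.6 ± 5.60), *Anxa7* (50.2 ± 6.23), *Anxa4* (43.8 ± 2.42), *Anxa3* (17.5 ± 6.17), *Anxa11* (8.02 ± 1.90) and *Anxa8* (0.140 ± 0.0755). Here *Anxa2* and *Anxa5* overlapped, as did *Anxa7* and *Anxa4*. *Anxa1* exceeded 99.9% of tested genes in mean RPKM in CD34hi and 99.7% in CD34lo fibroblasts, whereas *Anxa8* exceeded 14.6% and 4.21%. Between the populations *Anxa3* moved from the seventh to the second place.

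**Figure D1:**
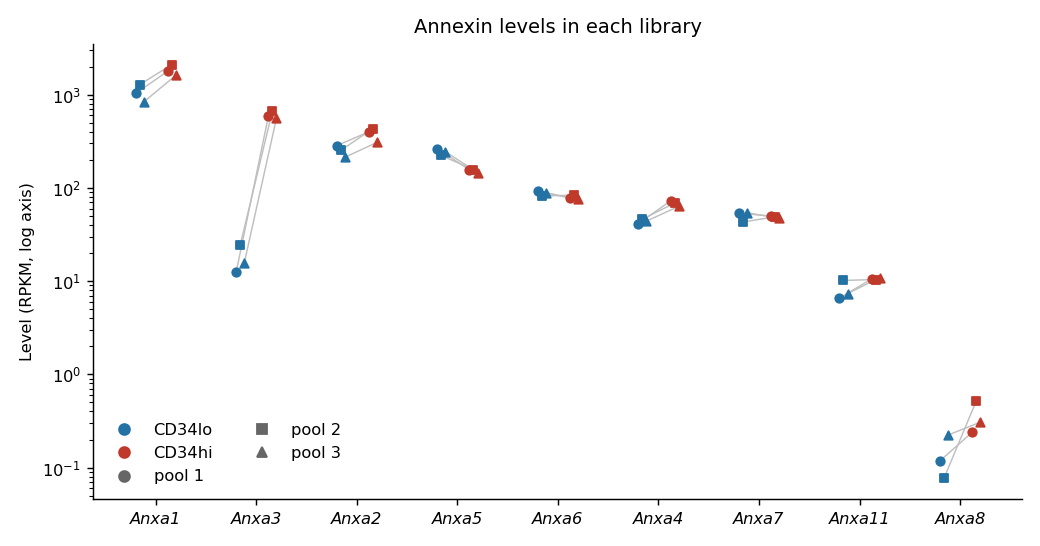
Level of each annexin in the 6 libraries, as RPKM on a log axis, with genes ordered by their mean in CD34hi fibroblasts. Blue points are CD34lo and red points CD34hi libraries, the marker shape gives the mouse pool, and gray lines join libraries of the same pool. *Anxa3* runs from between 12.5 and 24.4 RPKM in CD34lo to between 555 and 667 RPKM in CD34hi libraries, and the other annexins change far less.

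The sum of the 9 annexins was 3139, 3562 and 2817 RPKM in the CD34hi libraries of pools 1, 2 and 3 and 1783, 1961 and 1501 RPKM in the CD34lo libraries. Without *Anxa3* the sums were 2553, 2895 and 2262 RPKM against 1771, 1937 and 1486 RPKM, so that the populations did not overlap with or without this gene. These sums still held *Anxa1*, at 1787, 2094 and 1612 RPKM against 1029, 1281 and 835 RPKM. A sum without both genes was not computed, so a rise shared by the remaining annexins is not shown. *Anxa1* alone accounted for 57.6% ± 1.01 (SD, n = 3) of the sum in CD34hi and 59.5% ± 5.10 in CD34lo fibroblasts, and these values overlapped. The share of *Anxa3* was 19.0% ± 0.583 in CD34hi and 0.995% ± 0.274 in CD34lo fibroblasts. That of *Anxa5* was 4.85% ± 0.398 in CD34hi and 14.1% ± 2.55 in CD34lo fibroblasts, and that of *Anxa6* was 2.50% ± 0.177 and 5.08% ± 0.835. A share also depends on the sum, which was higher in CD34hi libraries. The level of *Anxa5* itself was 153 RPKM in CD34hi and 244 RPKM in CD34lo fibroblasts. That of *Anxa6* was 78.9 and 87.6 RPKM, with overlapping libraries.

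**Figure D2:**
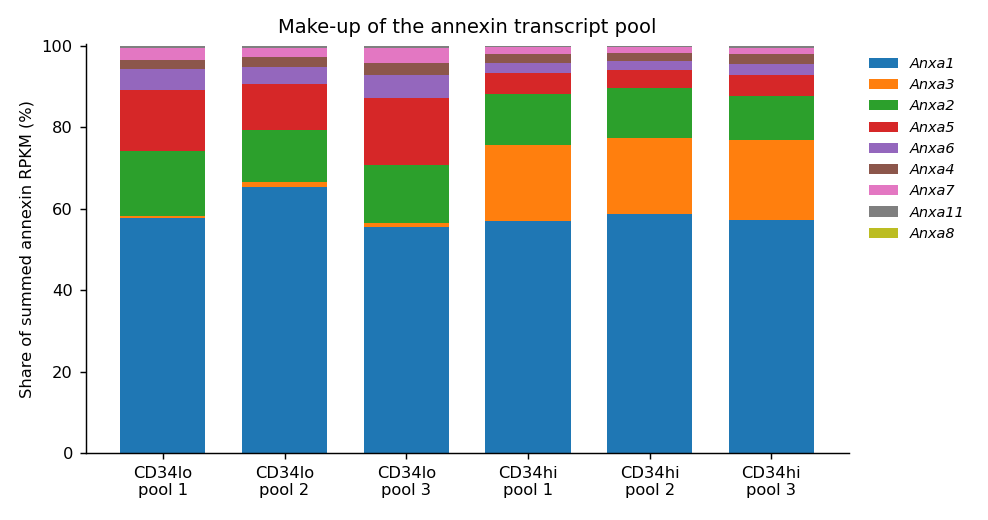
Share of each annexin in the summed RPKM of the 9 genes, in percent, with one stacked bar per library from 0 to 100. *Anxa1* fills between 55.6% and 65.3% of each bar, and *Anxa3* fills between 18.7% and 19.7% of the CD34hi bars against between 0.702% and 1.24% of the CD34lo bars.

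Of the 9 annexins, 4 were among the genes called higher in CD34hi fibroblasts at an adjusted p-value under 0.05 (*Anxa1*, *Anxa2*, *Anxa3* and *Anxa4*) and 1 was among those called higher in CD34lo fibroblasts (*Anxa5*). Over all genes tested, the edgeR quasi-likelihood test (Benjamini-Hochberg adjusted) called 35.6%, with 16.9% higher in CD34hi and 18.7% higher in CD34lo fibroblasts. In 6 annexins the CD34hi libraries all lay above the CD34lo libraries in CPM, in 1 they all lay below, and in 2 the populations overlapped. Among all genes tested 24.8% lay wholly above and 25.3% wholly below, 50.1% together. Because the genes were listed from this comparison, these counts are not set against the background. Log2 fold changes below are CD34hi vs CD34lo, with standard errors (SE) from the edgeR fit across all genes. In bulk RNA from sorted cells, fewer cells of a type and less RNA per cell cannot be told apart.

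*Anxa3* (gene 11745, chromosome 5, 96793385 to 96845968, plus strand) encodes a small annexin of the typical single-core form. It was at 936, 1066 and 887 CPM in the CD34hi libraries of pools 1, 2 and 3, and at 20.0, 39.0 and 24.9 CPM in the CD34lo libraries. The lowest CD34hi library was thus far above the highest CD34lo library. The log2 fold change was 5.11 (SE 0.27), 34.5-fold higher in CD34hi fibroblasts and the 68th largest of the 15219 genes tested. Within pools the log2 difference was 5.55, 4.77 and 5.15, and with any 1 pool or library left out the fold change stayed between 4.94 and 5.42. The CD34lo library of pool 2 had the highest *Anxa3* of its population, and also the highest *Cd34*. The part of this library's *Cd34* level in the result was not tested.

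*Anxa1* (gene 16952, chromosome 19, 20373434 to 20390671, minus strand) encodes the glucocorticoid-inducible annexin also called lipocortin 1, which is released from cells and acts on formyl peptide receptors. It was at 2493, 2922 and 2248 CPM in CD34hi and at 1435, 1786 and 1165 CPM in CD34lo libraries of pools 1, 2 and 3. Pool 2 was highest and pool 3 lowest in both populations, and the populations did not overlap. The log2 fold change was 0.80 (SE 0.19), or 1.75-fold, with pool differences of 0.80, 0.71 and 0.95. The call was lost without pool 1 (log2 fold change 0.83) and without the CD34hi library of pool 2 (0.71).

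*Anxa2* (gene 12306, chromosome 9, 69453683 to 69491785, plus strand) encodes an actin-binding annexin that forms a heterotetramer with S100A10 at the plasma membrane. It was at 549, 594 and 422 CPM in CD34hi and at 389, 346 and 292 CPM in CD34lo libraries. The CD34hi library of pool 3 came near the CD34lo library of pool 1, but the populations did not overlap. The log2 fold change was 0.61 (SE 0.17), and the pool differences were 0.49, 0.78 and 0.53. Its call was lost in 6 of the 9 fits with a pool or library removed, among them those without pool 1 (0.70) and without pool 2 (0.51), with values between 0.51 and 0.74. An antisense gene that overlaps *Anxa2* had 843 counts against 105023, and reads shared with an *Anxa2*-related pseudogene named in the reference were not analysed here.

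*Anxa4* (gene 11746, chromosome 6, 86736840 to 86793584, minus strand) encodes an annexin that assembles on the inner face of membranes. It was at 145, 137 and 127 CPM in CD34hi and at 82.8, 92.5 and 88.1 CPM in CD34lo libraries. The coefficient of variation was 6.81% in CD34hi and 5.52% in CD34lo libraries, the latter the lowest of the 9 genes in that population, and the populations were well apart. The log2 fold change was 0.64 (SE 0.11) and lay between 0.57 and 0.69 in all 17 alternative fits, and the call was kept in each.

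*Anxa5* (gene 11747, chromosome 3, 36448923 to 36475887, minus strand) encodes the annexin widely used as a probe for phosphatidylserine on dying cells. It was at 269, 270 and 251 CPM in CD34hi and at 455, 383 and 422 CPM in CD34lo libraries of pools 1, 2 and 3. Every CD34lo library exceeded every CD34hi library, in the direction opposite to *Anxa1*, *Anxa2*, *Anxa3* and *Anxa4*. The log2 fold change was -0.67 (SE 0.12), which is 1.60-fold higher in CD34lo fibroblasts, and the pool differences were -0.76, -0.50 and -0.75. The call was lost without pool 1, with a value of -0.60.

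*Anxa6* (gene 11749, chromosome 11, 54978962 to 55033471, minus strand), the annexin with the duplicated core, and *Anxa7* (gene 11750, chromosome 14, 20455261 to 20480133, minus strand), also called synexin, were not called. *Anxa6* was at 206, 222 and 202 CPM in CD34hi and at 248, 218 and 233 CPM in CD34lo libraries. The CD34hi library of pool 2 lay above the CD34lo library of the same pool, so the populations overlapped, and the log2 fold change was -0.15 (SE 0.11). *Anxa7* was at 148, 145 and 140 CPM in CD34hi and at 158, 127 and 161 CPM in CD34lo libraries. Its log2 fold change was -0.04 (SE 0.12), and its pool differences of -0.10, 0.19 and -0.20 differed in sign.

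*Anxa11* (gene 11744, chromosome 14, 25842155 to 25886804, plus strand) encodes an annexin with a long disordered head that tethers RNA granules to lysosomes. It was at 25.2, 24.9 and 26.2 CPM in CD34hi and at 15.7, 24.3 and 17.6 CPM in CD34lo libraries. The CD34lo library of pool 2 nearly reached the CD34hi level, whereas the others were clearly lower. The log2 fold change was 0.41 (SE 0.17) and was not called. When pools were modelled as a replicate block it was called, at 0.43 (SE 0.15), and it was also called without pool 2 (0.63) and without the CD34lo library of pool 2 (0.61). GENCODE places the antisense gene *Anxa11os* within *Anxa11* on the opposite strand. It was not analysed here, and since the library kit does not mark strand, reads from the 2 genes cannot be told apart.

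*Anxa8* (gene 11752, chromosome 14, 34085990 to 34100571, plus strand), an annexin best known from epithelia, was scarce. It had 20, 35 and 26 counts in CD34hi and 12, 4 and 13 counts in CD34lo libraries, or 0.447, 0.966 and 0.573 CPM against 0.221, 0.144 and 0.418 CPM. The populations came close at 0.447 and 0.418 CPM, with a log2 fold change of 1.33 (SE 0.52) that was not called and that ranged from 0.72 to 1.87 with a pool or library left out. A count of 0 would allow up to 3 counts, or between 0.0553 and 0.108 CPM depending on the library, a limit that covers counting error only. Keratinocyte markers were higher in CD34hi libraries too (above), and their part in this value was not tested.

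**Figure D3:**
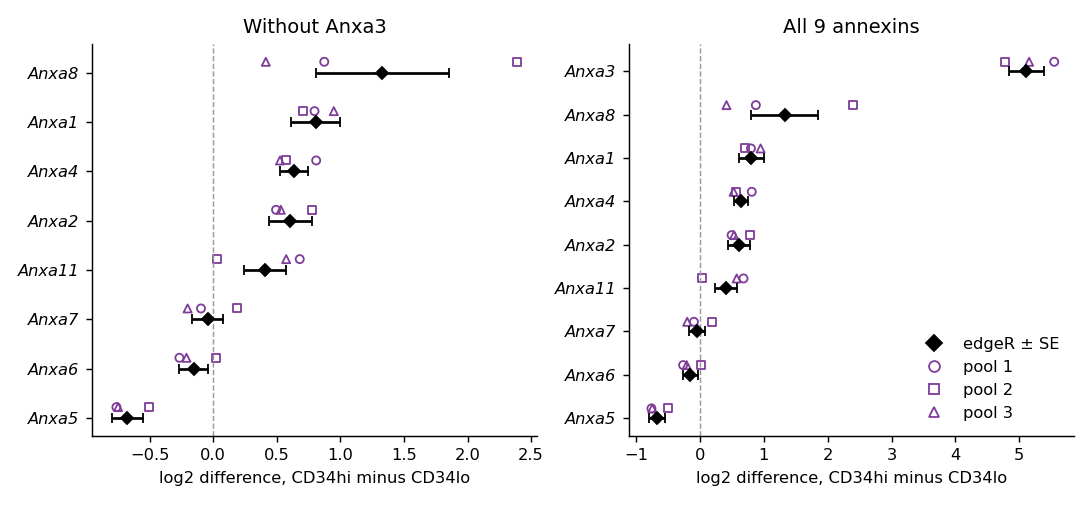
Log2 difference between CD34hi and CD34lo fibroblasts for each annexin, with the edgeR estimate ± SE as black diamonds and the 3 within-pool differences of log2 CPM as open symbols; the left panel omits *Anxa3* to widen the scale. *Anxa1*, *Anxa2*, *Anxa4*, *Anxa8* and *Anxa11* lie to the right of 0 and *Anxa5* to the left in every pool, while the pools straddle 0 for *Anxa6* and *Anxa7*.

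The tested genes with a symbol whose log2 CPM followed *Anxa3* most closely over the 6 libraries were *Efhd1*, *Iqsec1*, *Pde8a*, *Cmah* and *Pi16*, with a Pearson's r of 0.9999, 0.9994, 0.9994, 0.9993 and 0.9992. Their log2 fold changes ranged from 1.33 for *Iqsec1* to 4.56 for *Pi16*, a marker of adventitial, progenitor-type fibroblasts. Those that followed *Anxa5* most closely were *Acot7*, *Supt3*, *Nectin4*, *Gpc1* and *Adgrl1*, with r between 0.9983 and 0.9992 and log2 fold changes between -3.50 and -1.25. The 6 points fall into 2 populations, and any gene that separates them has a high r. Outside the 9 annexins, r with *Anxa3* was over 0.95 for 1195 genes and r with *Anxa5* for 1048.

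Annexin-linked genes were then examined through 7 lists with 48 genes, of which 40 were tested. The lists were chosen with earlier results of these data known, so the calls and p-values for their genes are descriptions. At an adjusted p-value under 0.05 (edgeR quasi-likelihood, Benjamini-Hochberg over all genes tested), 11 were higher in CD34hi and 3 were higher in CD34lo fibroblasts, and 26 were not called, where 16.9% of all genes tested were higher in CD34hi and 18.7% in CD34lo fibroblasts. With both directions together, the share called was near the 35.6% over all genes tested. The median log2 fold change was 0.25, against -0.01 over all genes tested. The number higher in CD34hi fell to 6 without pool 1, and to 7 without pool 2 and without the CD34hi library of pool 2, and the number higher in CD34lo became 5 without the CD34hi library of pool 3.

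Of the other annexins, *Anxa9* was the only gene tested, with a log2 fold change of -0.71 (adjusted p = 0.0863 in edgeR). It is uncertain, since *Mindy1* overlaps it on the opposite strand and had 9348 counts against 499. *Anxa10* had 1 count in all and *Anxa13* had 10, and neither was testable at this depth.

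The S100 proteins listed here are small partners of annexins, and all 6 genes were tested. *S100a11*, whose product binds annexin A1, was at 111, 112 and 109 CPM in CD34hi and at 52.0, 50.7 and 44.7 CPM in CD34lo libraries, without overlap. Its log2 fold change was 1.17 (SE 0.11, adjusted p = 6.47e-05 in edgeR), and no alternative removed the call. *S100a10*, the partner of annexin A2, was at 445, 434 and 392 CPM in CD34hi and at 288, 331 and 251 CPM in CD34lo libraries. It rose in CD34hi fibroblasts by a log2 fold change of 0.55 (SE 0.14, adjusted p = 0.0151 in edgeR) and the call was lost without pool 1 and without the CD34hi library of pool 2. *S100b* was higher in CD34lo fibroblasts, with 12.6 ± 0.293 CPM (SD, n = 3) against 5.71 ± 0.0769 CPM and a log2 fold change of -1.14. *S100a6*, *S100a4* and *S100a1* were not called, at 0.29, -0.27 and -0.31.

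The formyl peptide receptor family includes receptors for annexin A1, and its genes listed here were scarce or not detected. *Fpr1* had 73 counts over all libraries and *Fpr2* had 54, and neither was called (adjusted p = 0.113 and 0.441 in edgeR). *Fpr3*, *Fpr-rs3* and *Fpr-rs4* had 0 counts in each library, which allows up to 3 counts, or 0.0553 to 0.108 CPM depending on the library.

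Of 10 membrane repair partners, 4 were higher in CD34hi (16.9% over all genes tested) and 2 were higher in CD34lo fibroblasts (18.7%). The 2 ferlins, calcium sensors of membrane fusion, went in opposite directions. *Myof* (myoferlin) was at 260, 290 and 296 CPM in CD34hi libraries and at 102 ± 2.51 CPM (SD, n = 3) in CD34lo libraries, a log2 fold change of 1.47 (SE 0.11, adjusted p = 2.76e-05 in edgeR). *Dysf* (dysferlin) was at 0.738, 1.60 and 0.882 CPM in CD34hi and at 5.09, 5.03 and 4.63 CPM in CD34lo libraries, a log2 fold change of -2.21 (SE 0.31, adjusted p = 0.000651 in edgeR). The caveola genes also divided, with *Cavin1* at 0.86 and *Cav1* at -1.05. Endothelial, pericyte, muscle and macrophage marker sums were higher in CD34lo libraries too (above). Their part in the *Dysf* and *Cav1* values was not tested. *Ahnak2*, related to the scaffold that binds the annexin A2 complex, was higher in CD34hi fibroblasts at 1.94, while *Ahnak* itself, at 2753 ± 167 CPM (SD, n = 3) in CD34hi and 3150 ± 677 CPM in CD34lo, was not called. The calpain subunit *Capns1* was called at 0.47, a call lost without pool 1, without pool 2 and without either CD34hi library of these pools. *Capn1*, *Capn2* and *Trim72* were not called.

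Scramblases and flippases place phosphatidylserine, the annexin ligand, on the outer or inner membrane leaflet. Of 12 tested scramblase and flippase genes, the flippase gene *Atp11a* was called higher in CD34hi fibroblasts (log2 fold change 0.39), and 11 were not called. Over all genes tested, 16.9% were called higher in CD34hi and 18.7% higher in CD34lo fibroblasts. The *Atp11a* call was lost without pool 1, without pool 2 and without the CD34hi library of pool 2. The calcium-activated scramblase *Ano6* was at 192 ± 13.0 CPM (SD, n = 3) in CD34hi and 180 ± 8.98 CPM in CD34lo fibroblasts, with overlapping libraries. With the replicate block, *Xkr8* was called higher in CD34hi and *Plscr1* higher in CD34lo fibroblasts, at main log2 fold changes of 0.65 and -0.47.

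A further list held 6 genes of penta-EF-hand and ESCRT proteins, and binding of each product to annexins was not examined. *Gca* (grancalcin) was higher in CD34hi fibroblasts, at 3.33, 3.28 and 2.84 CPM against 0.553, 0.935 and 1.64 CPM (log2 fold change 1.62, SE 0.38, adjusted p = 0.00986 in edgeR). Its call was lost without pool 1 and without pool 2. *Pdcd6ip* (ALIX), an ESCRT adaptor, was also higher, with a log2 fold change of 0.39 (SE 0.12, adjusted p = 0.0404 in edgeR). Its call was lost with upper-quartile normalization and in 7 of the 9 fits with a pool or library removed. *Sri*, *Pdcd6*, *Pef1* and *Tsg101* were not called, at 0.27, 0.24, 0.20 and 0.26. Annexin A1 was first described as an inhibitor of phospholipase A2 activity. Of the cytosolic phospholipases A2, *Pla2g4a* was at 87.6, 74.6 and 94.2 CPM in CD34hi and at 28.8, 27.2 and 36.3 CPM in CD34lo libraries (log2 fold change 1.47, SE 0.15, adjusted p = 0.000108 in edgeR). *Pla2g4b* was also higher in CD34hi fibroblasts, at 0.89, *Pla2g4c* was not called at 0.74, and *Pla2g4e* and *Pla2g4f* did not pass the filter.

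**Figure D4:**
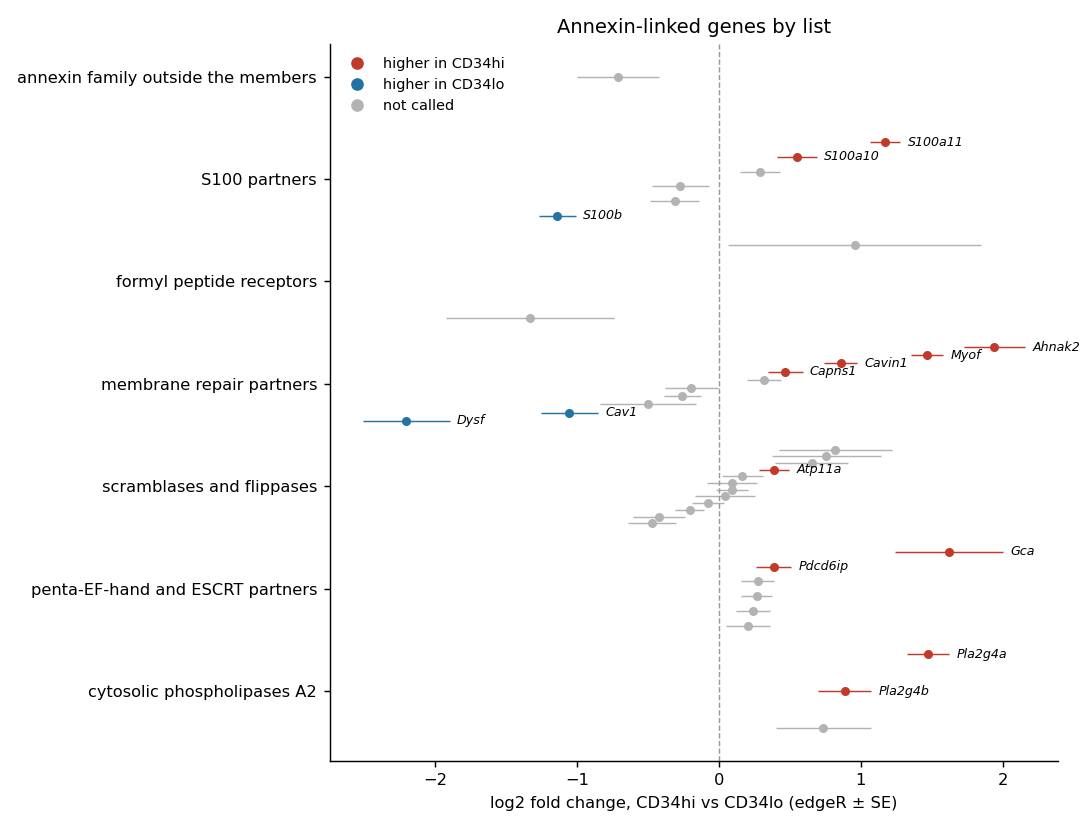
Log2 fold change of CD34hi vs CD34lo fibroblasts for the 40 tested genes of the 7 annexin-linked lists, with the edgeR SE as bars and one row per gene within each list. Red marks the 11 genes called higher in CD34hi, blue the 3 called higher in CD34lo and gray the 26 not called; *Ahnak2* lies farthest right at 1.94 and *Dysf* farthest left at -2.21.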

How the data were processed

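Bulk RNA-seq libraries (TruSeq RNA v2) were made from sorted CD34hi and CD34lo mammary fibroblasts of 3 mouse pools. The authors aligned reads to GRCm38/mm10 and counted them with Rsubread, and they deposited these gene counts unnormalized and unfiltered, beside each gene's length. The annotation, strand setting and handling of multi-mapping reads are not given in the sources used here. Symbols came from a RefSeq table (25275 of 27179 genes matched).

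In R 4.3.3, counts were filtered with filterByExpr (15219 genes), TMM-normalized and tested with the quasi-likelihood test of edgeR 4.0.16, with Benjamini-Hochberg adjustment and a threshold of 0.05. The SE is the absolute log2 fold change over the square root of F, and pool differences are of log2 CPM with a prior of 2 counts. The script was tested on simulated counts. The study's limma-voom test (limma 3.58.1), DESeq2 1.42.0, other normalizations and filters, the mouse pool as a replicate block, and each pool or library left out were alternatives.

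Same-numbered libraries are paired because they come from the same mice. Across genes, which are not replicates, their deviations from population means had an r of 0.279, 0.0844 and 0.243. An exact permutation test of 3 libraries against 3 cannot go below p = 0.1. The members and lists were chosen with earlier results of these data known. Genes named are the 9 annexins, those of the linked and marker lists, *Cd34*, and the 5 genes most correlated with the annexin of largest change in each direction; *Mindy1* and *Anxa11os* are named, outside this rule, because they overlap annexin genes. Some listed genes are not reported here.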

Additional observations from a re-analysis of the deposited data

How the results depend on the processing

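The number of genes differing between the populations was 5411 in the main fit, which did not model the pairing by pool. With the pool as a replicate block it was 6161 in edgeR and 6418 in limma-voom. Without the block it was 3444 at an adjusted p-value under 0.01, and between 3468 and 5236 when a pool or library was left out. The annexins called higher in CD34hi fibroblasts numbered 4, and 2 at an adjusted p-value under 0.01 and between 2 and 4 when a pool or a library was left out; those called higher in CD34lo fibroblasts numbered between 0 and 1 in these fits. Linked genes higher in CD34hi numbered between 6 and 12 in them, and those higher in CD34lo between 3 and 5.

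With a pool or library left out, log2 fold changes ranged from 0.67 to 0.97 for *Anxa1*, 0.51 to 0.74 for *Anxa2*, -0.75 to -0.59 for *Anxa5* and 0.31 to 0.63 for *Anxa11*. *Anxa7* turned positive without replicate 1 (0.0077), without replicate 3 (0.0390), without CD34lo replicate 1 (0.0275) and without CD34lo replicate 3 (0.0166), in a range of -0.15 to 0.04. With the replicate block, *Anxa11* was called at 0.43 in edgeR and 0.44 in limma-voom, and the block changed no other annexin call. The summed annexin level was 7855 in CD34hi and 4510 in CD34lo fibroblasts as TPM, a unit that rescales all genes alike. Except for the TPM change of unit, the cause was not tested. Of the annexin log2 fold changes under alternatives, 135 kept direction and side of the threshold, 9 lost their call, 4 gained one and 4 changed sign. The order of levels in CD34lo fibroblasts changed without the library of pool 1 or pool 2. *Anxa8* gave no value with at least 10 counts in every library.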
